A study of Mus musculus with 6 samples.

Results

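PD-L1 and 8 further immune checkpoint and costimulatory genes were followed in endothelial cells (ECs) sorted from metastatic mouse lungs. The 9 genes were Cd274 (PD-L1), Pdcd1lg2 (PD-L2), Cd80, Cd86, Cd276 (B7-H3), Icosl, Cd40, Lgals9 (galectin-9) and Ido1. They were taken as a named list that was chosen with earlier results of these data known. Every probe set that the platform annotation gave to 1 of these symbols alone was used. These amounted to 16 of 45037 tested probe sets and 9 of 18193 genes. Cd80 had 4 such probe sets, Cd40 had 3, Cd86 and Icosl had 2 each, and Cd274, Pdcd1lg2, Cd276, Lgals9 and Ido1 had 1 each.

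All mice were NSG, an immunodeficient strain that lacks T, B and natural killer cells, and were 6 to 8 weeks old when MDA-MB-231-LM2 cells, human breast cancer cells of a subline that colonizes the lung, were injected into the tail vein. On days 14, 16 and 18 the mice received either PBS-liposomes (3 arrays) or clodronate-liposomes (3 arrays), and lungs were taken on day 20 according to the design text, or after 3 weeks according to the sample labels. Clodronate kills the phagocytes that ingest the liposomes, and the comparison was meant to ask which EC genes depended on the presence of macrophages. The paper also reports less lung colonization by these cancer cells after clodronate-liposomes. That bioluminescence is given for day 14, the day on which the mice of these arrays received their first liposomes. The metastatic load of the mice of these arrays is not given here. An effect of macrophage loss and one of a changed metastatic load therefore cannot be told apart here. ECs were sorted as CD31+ cells after exclusion of CD45, CD11b, EpCAM, CD140a, CD140b and the GFP of the tumor cells. Both groups carried metastases, so neither stands for ECs of a healthy lung, and macrophage depletion itself was not measured on these arrays. The paper followed it by flow cytometry of macrophages in metastatic lungs after either kind of liposome.

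Checkpoint ligands are surface proteins that T cells read while they recognize antigen. PD-L1 and PD-L2 bind PD-1 and restrain the T cell, CD80 and CD86 bind CD28 to activate it or CTLA-4 to restrain it, and ICOSL binds the costimulatory receptor ICOS. CD40 is a receptor through which CD40 ligand activates NF-kB in antigen-presenting cells and ECs, galectin-9 is a secreted lectin that binds TIM-3 and other glycoproteins, and IDO1 degrades tryptophan to kynurenine. Interferon gamma is the best known inducer of PD-L1 and IDO1, and it acts through receptor-bound JAK kinases and the transcription factor IRF1.

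The promoters of the members were searched for 2 interferon response motifs, and those that hold a match are shown. RefSeq promoter sequences of assembly GRCm38.p6 were found for 6 of the 9 genes (Cd274, Pdcd1lg2, Cd80, Cd276, Icosl and Lgals9). Cd86, Cd40 and Ido1 had no entry. Each promoter spanned 250 bases before and 50 bases after the annotated start and was searched on both strands. The interferon-regulatory factor element GAAANNGAA was found in Cd274 and Lgals9, and it occurs in 8.56% of all 32851 promoters in the table. The gamma-activated site TTCNNNGAA was found in 0 of the 6, and it occurs in 8.30% of all promoters. The 250 bases before each start are shown 5′ to 3′ on the strand of the gene, with the match to the interferon-regulatory factor element, which lies on the opposite strand in both, in capitals. The Cd274 stretch is chr19:29367188-29367437 on the plus strand and the Lgals9 stretch is chr11:78984925-78985174 on the minus strand.
Cd274: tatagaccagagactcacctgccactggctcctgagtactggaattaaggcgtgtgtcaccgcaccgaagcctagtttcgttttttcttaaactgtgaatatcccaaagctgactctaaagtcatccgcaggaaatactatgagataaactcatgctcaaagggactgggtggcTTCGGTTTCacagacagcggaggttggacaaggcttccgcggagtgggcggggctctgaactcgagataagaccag
Lgals9: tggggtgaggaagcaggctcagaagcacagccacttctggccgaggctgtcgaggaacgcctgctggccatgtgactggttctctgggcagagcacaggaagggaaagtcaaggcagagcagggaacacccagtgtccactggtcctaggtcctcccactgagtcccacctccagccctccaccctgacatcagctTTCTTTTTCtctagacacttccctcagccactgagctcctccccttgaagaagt
The match began 76 bases before the start of Cd274 and 54 bases before the start of Lgals9, and Lgals9 had a further match that began 16 bases after its start. These matches describe the letters only, since binding of a factor was not measured.

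Values are log2 signals, on which a difference of 1 is a doubling, and differences are clodronate-liposome minus PBS-liposome. Brightness depends on the probe as well as on the transcript, so levels are compared between groups and not between genes. To judge which genes gave signal, 32 probe sets of 21 genes restricted to other tissues served as a low-signal reference. Its median was 7.21, its 95th percentile 8.58 and its highest value 10.18. Of these 32, 1 was as bright as or brighter than Cd274, Ido1 and the dimmest Cd40 probe set, and 2 were so for Cd276. Of the 16 member probe sets, 7 lay above the 95th percentile (Cd274, Cd276, Lgals9, Ido1 and all 3 of Cd40). The other 9 lay at or below it (Pdcd1lg2 and all of Cd80, Cd86 and Icosl). All 14 endothelial markers lay above it, with Pecam1 (CD31) at 13.59 and Cdh5 (VE-cadherin) at 13.42 over the 6 arrays, and their differences of 0.07 (SE 0.094) and 0.09 (SE 0.12) did not pass the test. All 6 arrays had a median of 8.13 and correlated with each other at r of 0.985 to 0.991 over probe sets, which are not independent replicates. The 18 hybridization control probe sets, which report spiked-in material and not the cells, averaged 12.11, 12.24 and 12.12 on the PBS-liposome arrays and 11.91, 12.20 and 11.94 on the clodronate-liposome arrays, so that clodronate-liposome replicate 2 stood with the PBS-liposome arrays and apart from the other two of its group. The 3 control probe sets of 18S ribosomal RNA, which report the sample's own RNA, split the arrays in the same way, at 12.63, 12.39 and 12.56 against 13.01, 12.33 and 13.00. The part of the 18S signal in the differences below was not tested.

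Cd274 was the only member past the threshold, which was an adjusted p below 0.05 over all probe sets in limma. Its signals were 10.71, 10.69 and 10.44 in the PBS-liposome arrays and 9.34, 9.76 and 9.44 in the clodronate-liposome arrays. The groups did not overlap, and every clodronate-liposome array lay below every PBS-liposome array. The mean fell from 10.61 ± 0.15 to 9.51 ± 0.22 (SD, n = 3 each), a log2 difference of -1.10 (SE 0.14, 95% CI -1.42 to -0.78) or 2.15-fold lower, with a limma adjusted p of 0.0312. The exact two-sided permutation p of this value was 0.1, the smallest that 3 arrays against 3 can give. By size of decrease Cd274 ranked 58th of 18193 genes, and by p it ranked 38th.

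The call of Cd274 depended on the choice of arrays and covariates while its direction did not. It was lost without PBS-liposome replicate 1 (difference -1.05, adjusted p = 0.112), replicate 2 (-1.06, 0.134) or replicate 3 (-1.19, 0.0869) and without clodronate-liposome replicate 1 (-1.02, 0.1001) or replicate 3 (-1.06, 0.123), and it held without clodronate-liposome replicate 2 (-1.23, 0.0418). With the hybridization controls as a covariate the difference was -0.92 (adjusted p = 0.157), in a fit whose smallest adjusted p over all probe sets was 0.0608. The replicate 2 array of the clodronate-liposome group, taken alone, lay 0.85 below the PBS-liposome mean.

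Among the members 1 of 16 probe sets was called lower and 0 higher, where over all probe sets 0.238% were called lower and 0.0688% higher. By gene, 1 of 9 was called, against 0.434% of all genes. The members were chosen with the earlier call of Cd274 known, so the counts in this paragraph are a description and do not test the list. At an unadjusted p below 0.05, limma gave 3 member probe sets lower and 2 higher, against 5.27% and 5.53% of all probe sets, and 4 of the 9 genes, against 10% of all genes. Groups that did not overlap were seen in 3 member probe sets in the lower direction (Cd274, Lgals9 and Ido1) and in 3 in the higher direction (Pdcd1lg2 and 2 of Cd40), against 8.04% and 7.97% of all probe sets, and in 5 of the 9 genes against 16.2% of all genes. The median difference of the 9 genes was -0.11, and that of all genes was -0.0031. Of the 9 genes 5 had a difference below 0 and 4 a difference above 0.

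**Figure D1:**
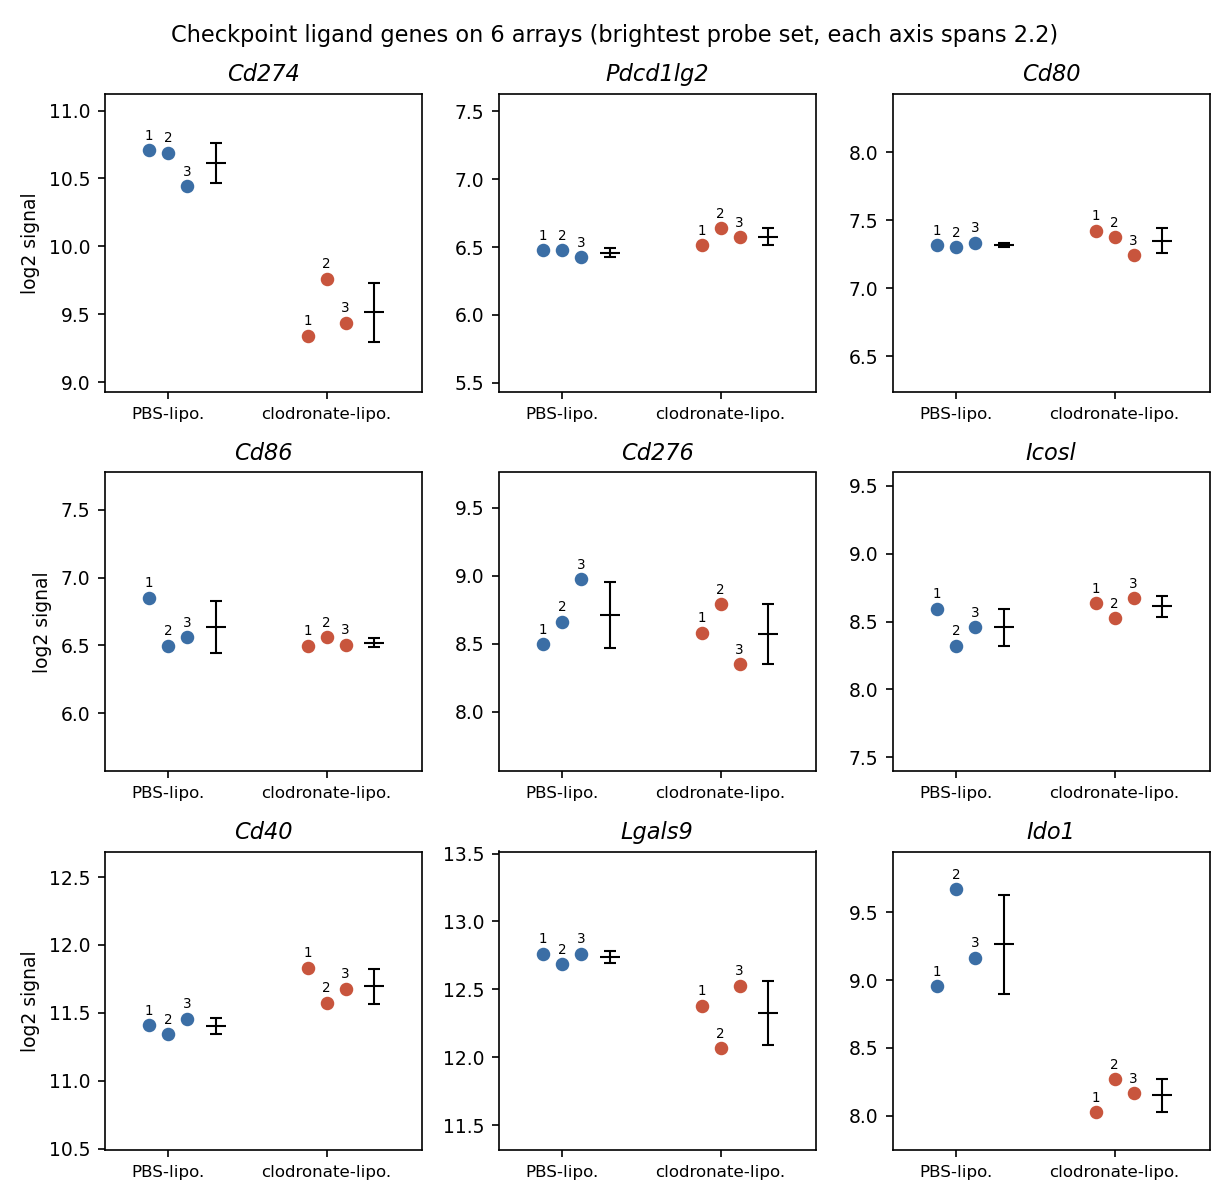
Log2 signal (vertical axis) of the brightest probe set of each of the 9 genes on the 3 PBS-liposome arrays (blue) and the 3 clodronate-liposome arrays (red), with the replicate number above each point and the group mean ± SD in black. Each panel spans the same range of 2.2 log2 units, and Cd274 and Ido1 show the widest gaps between groups, with the lowest PBS-liposome array of Cd274 at 10.44 and its highest clodronate-liposome array at 9.76.

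Ido1 had a difference of the same size as Cd274 with a wider spread, and it did not pass the threshold. Its signals were 8.95, 9.67 and 9.16 in PBS-liposome arrays and 8.03, 8.27 and 8.16 in clodronate-liposome arrays, with no overlap. The mean was 9.26 ± 0.37 in the first group and 8.15 ± 0.12 in the second (SD, n = 3 each), a log2 difference of -1.11 (SE 0.18, 95% CI -1.53 to -0.69) or 2.16-fold lower (adjusted p = 0.0656). It passed in 4 of 16 alternatives, which were the fit without probe sets of low signal (adjusted p = 0.0388), a trended and robust variance prior (0.0434), array weights (0.0442) and a fit of 1 value per gene (0.0337). It did not pass with the hybridization controls as a covariate (0.235), nor without any 1 of the 6 arrays (0.0938 to 0.219). The clodronate-liposome mean lay below the 95th percentile of the low-signal reference. PBS-liposome replicate 2 was the brightest for Ido1, and without it the difference was -0.91.

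Lgals9 was bright in ECs and differed by less. PBS-liposome arrays read 12.76, 12.69 and 12.76, and clodronate-liposome arrays read 12.38, 12.07 and 12.53. The groups did not overlap, and the spread was wider after clodronate-liposomes (SD 0.23 against 0.044). The log2 difference was -0.41 (SE 0.13, 95% CI -0.71 to -0.11) and did not pass the threshold (adjusted p = 0.290). Clodronate-liposome replicate 2 was the lowest array for Lgals9 and the highest of its group for Cd274.

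Cd40 lay on the other side of 0. Its brightest probe set read 11.41, 11.34 and 11.46 in PBS-liposome arrays and 11.83, 11.58 and 11.68 in clodronate-liposome arrays. The second brightest read 11.21, 11.23 and 11.29 against 11.74, 11.56 and 11.64. In both, every clodronate-liposome array lay above every PBS-liposome array. The log2 differences were 0.29 (SE 0.10, adjusted p = 0.355) and 0.41 (SE 0.095, adjusted p = 0.166), neither past the threshold. The dimmest Cd40 probe set overlapped between groups with a difference of 0.18 (SE 0.18, adjusted p = 0.798).

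Cd276, whose receptor on T cells is not settled, overlapped between groups. Its arrays read 8.50, 8.66 and 8.97 with PBS-liposomes and 8.58, 8.79 and 8.35 with clodronate-liposomes, a log2 difference of -0.14 (SE 0.16, 95% CI -0.51 to 0.23, adjusted p = 0.838). That interval includes a decrease of 0.5 as well as an increase, so a moderate change was not resolved by 3 arrays per group.

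The remaining members had means at or below the 95th percentile of the low-signal reference, and none of them passed the threshold. Icosl read 8.60, 8.32 and 8.46 against 8.64, 8.53 and 8.67 with its brighter probe set, a difference of 0.15 (SE 0.11, adjusted p = 0.687), and its other probe set differed by -0.01. The brighter one lay at the edge of the reference, above the percentile on 3 of the 6 arrays. Pdcd1lg2, the neighboring gene of Cd274 on chromosome 19 with 0 protein-coding genes between them, read 6.48, 6.48 and 6.42 against 6.51, 6.64 and 6.57. Its difference of 0.12 (SE 0.090, adjusted p = 0.727) came without overlap, but 24 of the 32 reference probe sets were as bright or brighter. The 4 Cd80 probe sets had means of 6.69 to 7.33 and differences of -0.11 to 0.03. The 2 Cd86 probe sets had means of 6.58 and 6.42 and differences of -0.11 and 0.13.

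**Figure D2:**
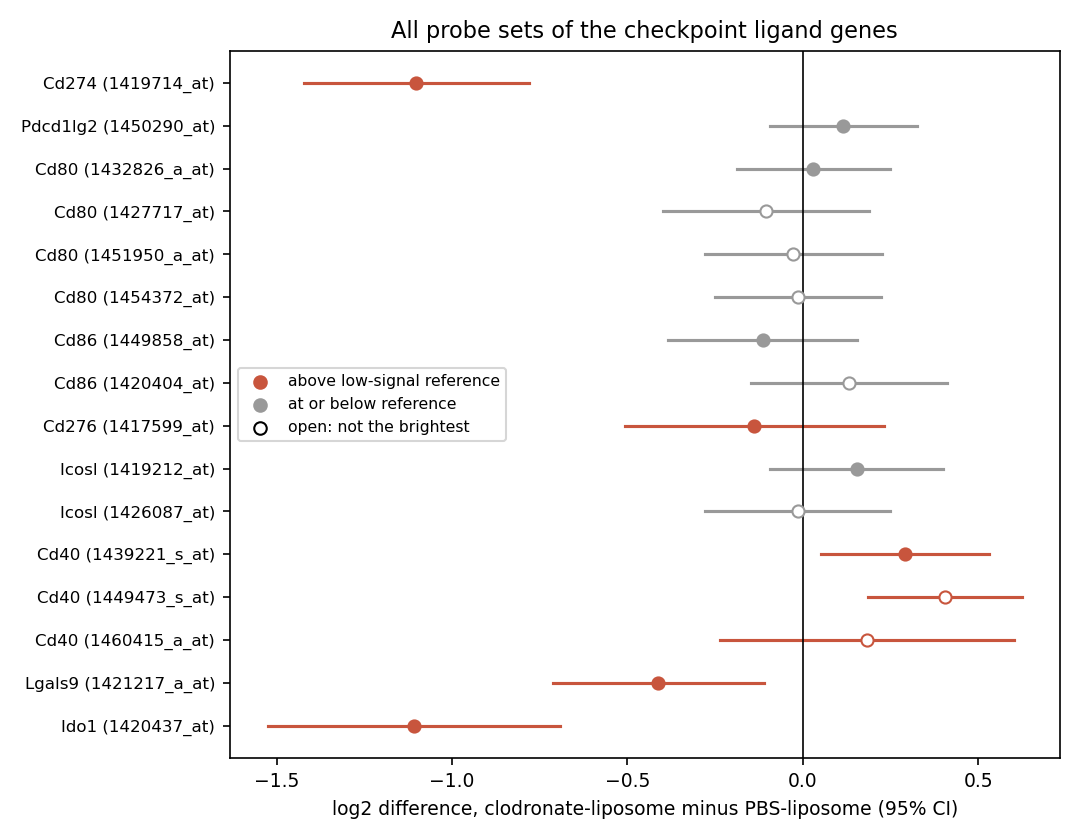
Log2 difference, clodronate-liposome minus PBS-liposome (horizontal axis), with its 95% confidence interval from limma for all 16 probe sets of the 9 genes (n = 3 arrays per group). Red marks probe sets whose mean lay above the 95th percentile of the low-signal reference, gray the others, and open circles the dimmer probe sets of a gene; the intervals of Cd274, Ido1 and Lgals9 lie below 0 and those of 2 Cd40 probe sets above 0.

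To test whether Cd274 differed in its response from each other member, the signal of the other gene was subtracted from that of Cd274 on each array. The treatment difference of Cd274 was more negative than that of Cd40 by 1.39 (-1.39), of Icosl (-1.25), of Pdcd1lg2 (-1.22), of Cd80 (-1.13), of Cd86 (-0.99) and of Cd276 (-0.96), and in these 6 of 8 pairs the subtracted values did not overlap between groups. Each had an exact permutation p of 0.1 and an adjusted p of 0.133 over the 8 pairs, and since 0.1 is the smallest p possible, no pair could pass. Icosl, Pdcd1lg2, Cd80 and Cd86 were at or below the low-signal reference and varied little, so those 4 values mostly restate the difference of Cd274 itself and do not show a different response of these genes. Against Lgals9 the subtracted values overlapped (-0.69, exact permutation p = 0.2, adjusted p = 0.229). Against Ido1 the difference was 0.0077 with overlapping groups (exact permutation p = 1), and leaving out 1 array at a time moved it between -0.16 and 0.21.

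Over the 6 arrays, Pearson r with Cd274 was 0.93 for Ido1, 0.69 for Lgals9, 0.53 for Cd86, 0.33 for Cd276, -0.27 for Cd80, -0.65 for Pdcd1lg2, -0.69 for Icosl and -0.95 for Cd40. These values hold the difference between groups and rest on 6 arrays, so they are a description. With each group's mean removed, r was 0.33 for Ido1, -0.75 for Lgals9, 0.37 for Cd86, 0.0050 for Cd276, -0.047 for Cd80, 0.96 for Pdcd1lg2, -0.33 for Icosl and -0.86 for Cd40, so that Lgals9 and Pdcd1lg2 changed sign. Within the groups, then, Ido1 followed Cd274 less closely than r over all 6 arrays shows.

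The 10 genes whose signal was most like that of Cd274 had r of 0.988 to 0.995 over the 6 arrays and 0.81 to 0.94 with group means removed. The 10 were picked by r over these same arrays, which also favors a high r with group means removed. The second range is therefore no separate support. They were Rab11a, Gimap4, Ifi47, 4930467D21Rik, Gcc1, Fbxo4, Timeless, Resf1, Slc46a3 and Irgm2. Irgm2, an interferon-inducible GTPase, fell by 1.52 (SE 0.15, adjusted p = 0.0155), from 11.77, 11.60 and 11.51 to 9.79, 10.32 and 10.19. Its call held without clodronate-liposome replicate 1 (adjusted p = 0.0259) or 2 (0.0374) and was lost without PBS-liposome replicate 1 (0.0713), 2 (0.0858) or 3 (0.0693) and without the third clodronate-liposome array (0.0617). Gcc1, a Golgi coiled-coil protein, fell by 0.79 (SE 0.10, adjusted p = 0.0312), a call lost without any 1 of the 6 arrays (adjusted p = 0.0648 to 0.138). The other 8 did not pass the threshold, among them Ifi47, a further interferon-inducible GTPase, at -0.51 (adjusted p = 0.118), Timeless at -0.56 (0.0656) and the recycling endosome GTPase Rab11a at -0.17 (0.546). Of 18191 genes compared, 442 (2.43%) had r of 0.9 or more with Cd274 and 318 (1.75%) had r of -0.9 or less, so a high r was not rare. All genes were read on the same 6 arrays and share their normalization.

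Genes around the members were then read from gene lists. For comparison, of all 18193 genes 63 were called lower and 16 higher, and 9269 had a difference below 0. At an unadjusted p below 0.05 in limma, 998 of all genes were lower and 826 higher. In the relay from the interferon gamma receptor to IRF1, 13 of 14 genes were measured, and 1 was called lower and 0 higher. The median difference was -0.13 against -0.0031 over all genes, and 10 of the 13 had a difference below 0. By unadjusted p below 0.05 in limma, 3 were lower and 1 higher. The called gene was Nlrc5, the transactivator of MHC class I genes, which read 10.29, 10.34 and 10.39 against 8.85, 9.40 and 9.35 and fell by 1.14 (SE 0.15, adjusted p = 0.0340). This call was lost without any 1 of the 6 arrays (adjusted p = 0.0504 to 0.139). Irf9, a transcription factor of the interferon response, was at -0.73 (SE 0.15, adjusted p = 0.117) with no overlap. Irf1 was bright at 12.97 over the 6 arrays and was at -0.16 (SE 0.11, adjusted p = 0.661), and the receptor chain Ifngr1 was at 0.11 (SE 0.091, adjusted p = 0.736).

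Socs3, the feedback inhibitor of JAK signaling in that list, gave opposing probe sets and was singled out after its values were seen. Its brightest probe set was at 0.26 (SE 0.10, adjusted p = 0.402). The second brightest was at -0.81 (SE 0.13, adjusted p = 0.0656). The dimmest of the 3 read 12.43, 12.29 and 12.30 against 10.53, 10.68 and 10.84 and was called lower by 1.66 (difference -1.66, SE 0.11, adjusted p = 0.00636). This last call held without each of the 6 arrays in turn (adjusted p = 0.0174 to 0.0473). The order of brightness is by the mean over all 6 arrays. In the PBS-liposome arrays alone the means were 12.04, 12.57 and 12.34 in that order, so the called probe set was not the dimmest there. Since the probe sets differed in sign, the direction of Socs3 as a gene is uncertain.

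**Figure D3:**
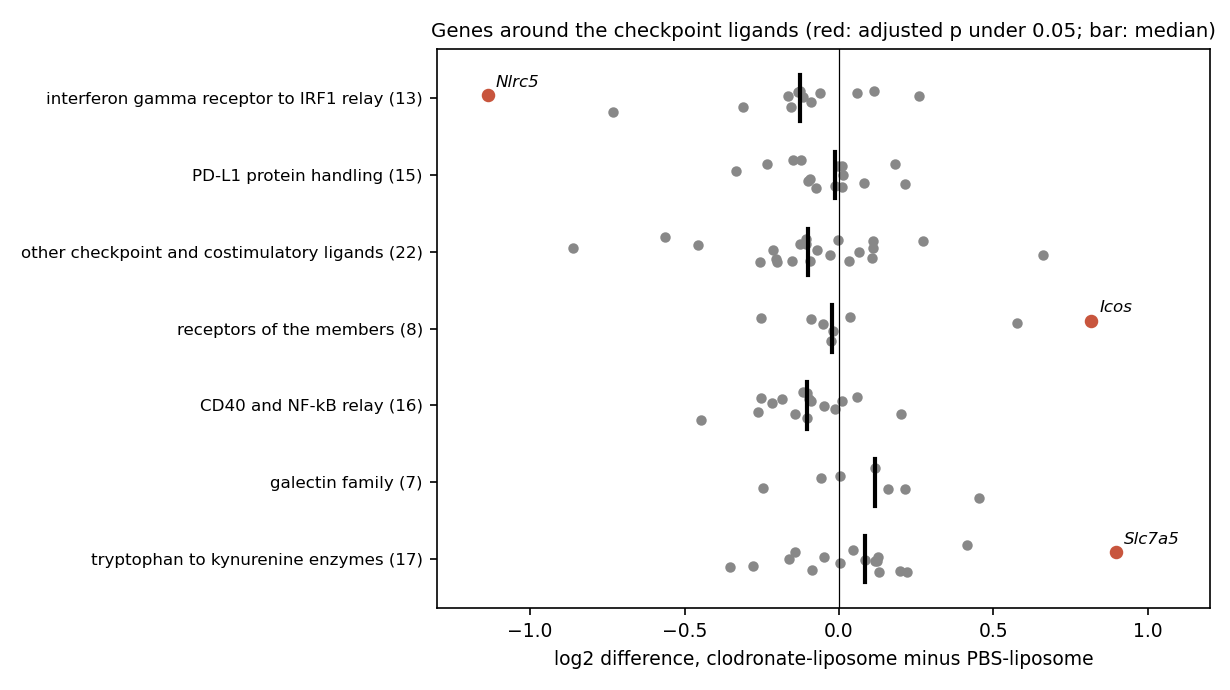
Log2 difference, clodronate-liposome minus PBS-liposome (horizontal axis), of the brightest probe set of each measured gene in 7 lists around the members, with the number of genes in parentheses. Each point is a gene, black bars are list medians, and red points passed an adjusted p of 0.05 (Nlrc5 at -1.14, Icos at 0.82 and Slc7a5 at 0.90).

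Genes that modify the PD-L1 protein or set its stability gave no calls. Of 15 listed genes all 15 were measured, 0 passed in either direction by limma (0 also at an unadjusted p below 0.05), and the median was -0.013. The smallest p values belonged to B3gnt3, a glycosyltransferase that modifies PD-L1, at -0.33 (SE 0.14, adjusted p = 0.465), and Zdhhc3, a palmitoyltransferase, at 0.18 (SE 0.092, adjusted p = 0.545). The PD-L1 protein was not measured.

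Other checkpoint and costimulatory ligands numbered 22 measured of 26 listed, with 0 called, 4 lower and 1 higher at an unadjusted p below 0.05, and a median of -0.10. Vsir (VISTA), a coinhibitory ligand of the B7 family, read 11.99, 11.79 and 11.81 against 11.06, 11.59 and 11.26. Its difference was -0.56 (SE 0.15, adjusted p = 0.201), and its other probe set was at -0.67 (adjusted p = 0.0944), with no overlap in either. Ildr2, a B7-like protein, was at -0.86 (SE 0.28, adjusted p = 0.299) by its brightest probe set and at -0.98 (0.259) by the next. The dimmest Ildr2 probe set read 9.37, 9.45 and 9.60 against 8.04, 8.56 and 7.98 and was called (difference -1.28, SE 0.16, adjusted p = 0.0312). It stayed past the threshold without clodronate-liposome replicate 2 (adjusted p = 0.0281) and was lost without any of the other arrays (0.0988 to 0.130).

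Receptors of the members were mostly at the level of the low-signal reference, with 2 of 8 above it. Of these 8 genes 0 were called lower and 1 higher, and the median was -0.022. Icos, the receptor of ICOSL, rose by 0.82 (SE 0.11, adjusted p = 0.0337), from 8.09, 7.91 and 8.16 to 8.84, 8.79 and 8.97, a call lost without any 1 of the 6 arrays (adjusted p = 0.0683 to 0.138). Its mean of 8.46 over the 6 arrays lay below the 95th percentile of the reference, with every PBS-liposome array below and every clodronate-liposome array above. The other Icos probe sets were at 0.51 (adjusted p = 0.237) and 0.14 (0.693), and the mice lack the T cells in which ICOS is known. Cd44, which galectin-9 binds, was at 0.58 (SE 0.14, adjusted p = 0.175), while its 3 other probe sets were at 0.48, -0.07 and -0.26.

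In the CD40 and NF-kB relay 16 of 19 genes were measured, 0 were called and 13 had a difference below 0, with a median of -0.10; at an unadjusted p below 0.05 there was 1 lower and 0 higher. Map3k14 (NIK), the kinase of the noncanonical branch, was at -0.45 (SE 0.10, adjusted p = 0.150), with its other probe set at -0.03, and Traf1 was at -0.26 (SE 0.14, adjusted p = 0.550). Cd40 itself had the opposite sign to most of this list.

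Of the 7 other galectins all were measured and 0 were called, with 1 lower and 0 higher at an unadjusted p below 0.05 and a median of 0.12. Lgals8 was at -0.25 (SE 0.11, adjusted p = 0.457) and Lgals3 at 0.45 (SE 0.23, adjusted p = 0.541).

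Among genes of tryptophan use and kynurenine signaling 17 of 18 were measured, 0 were called lower and 1 higher, and the median was 0.084. Slc7a5, the large neutral amino acid transporter that imports tryptophan, rose by 0.90 (SE 0.12, adjusted p = 0.0314), from 8.09, 8.02 and 8.07 to 9.17, 8.87 and 8.82, a call lost without any 1 of the 6 arrays (adjusted p = 0.0683 to 0.138). Its mean of 8.51 over the 6 arrays lay below the 95th percentile of the low-signal reference. Every PBS-liposome array lay below that percentile and every clodronate-liposome array above it. Wars, the tryptophanyl-tRNA synthetase and a known interferon gamma target, was at -0.28 (SE 0.092, adjusted p = 0.312), and its 3 other probe sets were at -0.37, -0.25 and -0.17.

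Leukocytes also express Cd274, Ido1 and Lgals9, and in bulk samples fewer cells of a type and less RNA per cell cannot be told apart. All 12 pan-leukocyte markers had differences below 0, against 9269 of all 18193 genes. By limma 0 were called, and 5 were lower at an unadjusted p below 0.05, against 998 of all genes. Of the 12, 2 lay above the low-signal reference, and the median difference was -0.25. Ptprc (CD45), the antigen excluded by the sort, was at -0.58 (SE 0.16, adjusted p = 0.217). The mean of the 12 was 8.38, 8.48 and 8.84 in PBS-liposome arrays and 8.22, 8.35 and 8.23 in clodronate-liposome arrays. PBS-liposome replicate 3, the highest array for these markers, was the lowest PBS-liposome array for Cd274. In the clodronate-liposome group, replicate 2 was the highest array both for these markers and for Cd274 (9.76). How far Cd274 followed these markers from array to array was not tested.

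The 18 macrophage and monocyte markers had a median difference of -0.098 with 0 called by limma (4 lower and 1 higher at an unadjusted p below 0.05). Their array means were 8.40, 8.19 and 8.53 against 8.13, 8.25 and 8.17. Of the 18, 13 had a difference below 0 and 4 lay above the low-signal reference. Those 4 were Mertk (0.07), Mrc1 (0.05), Lyz2 (-0.03) and Cd14 (-0.19). Csf1r, Cybb and Msr1 were not above it, with means of 8.37, 8.18 and 8.35 over the 6 arrays. Their PBS-liposome means of 8.70, 8.71 and 8.63 did lie above its 95th percentile. Their clodronate-liposome means of 8.05, 7.65 and 8.08 lay below it. The largest differences above 0 were those of Fcgr1 (0.32) and Siglecf (0.26). Csf1r, the receptor that macrophages need for survival, was at -0.65 (SE 0.12, adjusted p = 0.101), with its other probe sets at -1.24 (0.0834) and -0.17 (0.595). Cybb, the catalytic subunit of the phagocyte NADPH oxidase and the gene of this list with the smallest p, read 8.43, 8.69 and 9.01 against 7.31, 7.78 and 7.87, with no overlap. Its difference of -1.06 (SE 0.19, adjusted p = 0.0871) was about as large as that of Cd274. The scavenger receptor Msr1 was at -0.55 (SE 0.14, adjusted p = 0.188). Adgre1, a further macrophage marker, had a mean of 7.28, near the median of the low-signal reference (7.21), and was at -0.17 (SE 0.21, adjusted p = 0.855). The 15 dendritic cell markers had a median of -0.0038 with 0 called (3 lower at an unadjusted p below 0.05) and array means of 8.45, 8.44 and 8.43 against 8.40, 8.38 and 8.29, with 12 of the 15 not above the reference, Flt3 among them at 6.98. The smallest p values there belonged to Bst2, which ECs also express, at -0.51 (SE 0.098, adjusted p = 0.103), Irf8 at -0.42 (SE 0.093, adjusted p = 0.142) and Batf3 at -0.39 (SE 0.12, adjusted p = 0.277), each without overlap. Cybb, Msr1, Fcgr1, Siglecf, Bst2, Irf8 and Batf3 were singled out after their values were seen. Of 10 lymphocyte markers 0 lay above the reference, with Cd3e at 6.51. Markers of neutrophils, fibroblasts and mural cells, epithelium, mesothelium and platelets gave 0 calls among 43 measured genes, 2 of which had an unadjusted p below 0.05. The part of other cell types in the differences of Cd274, Ido1 and Lgals9 was not tested.

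**Figure D4:**
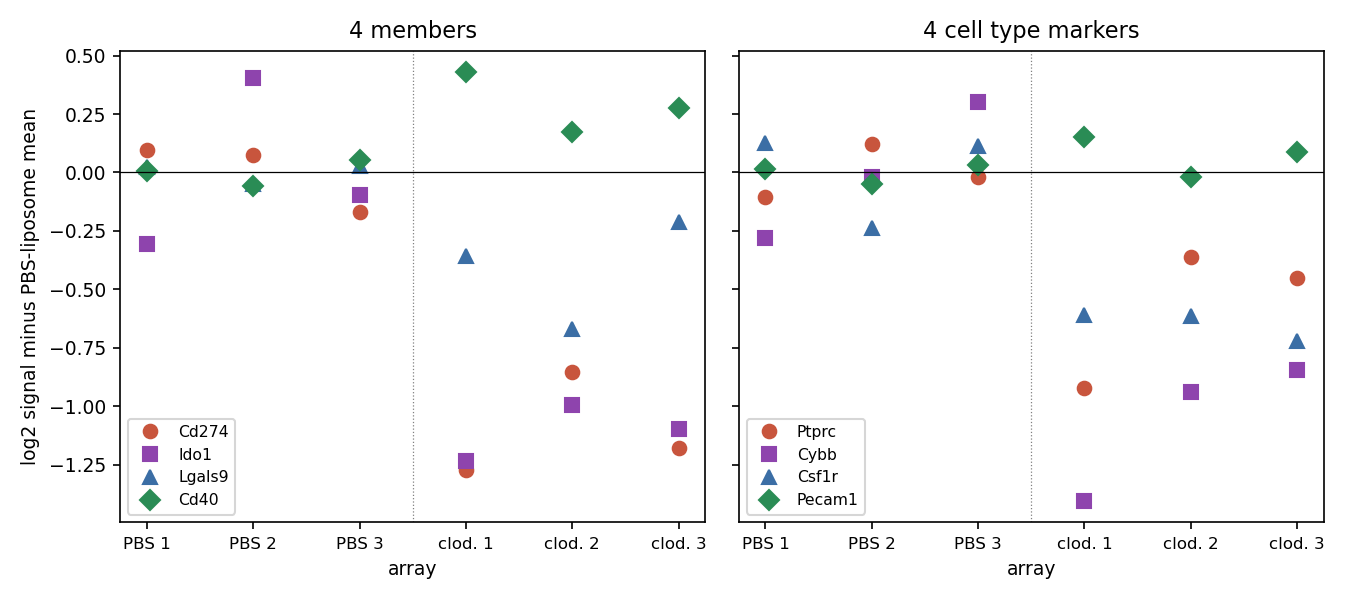
Log2 signal minus the mean of the 3 PBS-liposome arrays (vertical axis) on each of the 6 arrays, for Cd274, Ido1, Lgals9 and Cd40 (left) and for the leukocyte marker Ptprc, the macrophage markers Cybb and Csf1r and the endothelial marker Pecam1 (right). On the 3 clodronate-liposome arrays Cd274 and Ido1 lie 0.85 or more below the PBS-liposome mean, and Cybb lies 0.85 to 1.41 below it. Cybb and Csf1r had the smallest p values of the 18 macrophage and monocyte markers, of which 13 had a difference below 0.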

How the data were processed

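Gene expression of 6 samples of sorted lung ECs (3 per treatment group, grouped by the treatment in their labels) was measured on Affymetrix whole-genome mouse arrays, with RNA amplified from small inputs. Deposited values were log2 signals, computed by the authors with robust multiarray averaging (Chipster 3.8.0 is among the tools in the submitters' processing notes), which equalizes the arrays' distributions. These values were used as deposited, every sample column was used, and scanner files were not used here. Of 45101 probe sets, 64 manufacturer controls were set aside and 45037 tested, without a filter on low signal. The annotation gave 34945 probe sets 1 symbol. A gene with several probe sets was represented by the brightest over all arrays, and the others are given beside it.

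A linear model without covariates was fitted to all 6 arrays (limma 3.58.1, R 4.3.3, moderated two-sided test with 4 residual and 3.90 prior degrees of freedom), with Benjamini-Hochberg adjustment over all 45037 probe sets and a threshold of 0.05. The steps were tested on simulated data. Pairs of genes were compared by exact permutation. The labels call the replicates biological without saying how many mice each holds, and the 3 arrays per group limit precision.

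The members, the 7 pathway lists, the 10 marker lists and the low-signal reference were chosen with earlier results of these data known. The genes named were all members, the 10 genes most like Cd274 by Pearson r, the called genes of each pathway list (up to 5) or, where fewer than 2 were called, the 2 with the smallest p, and markers of the sort. Alternatives covered a filter on low signal, normalization, variance prior, array weights, the hybridization controls, the replicate number, the probe set per gene and leaving out arrays. The array files name no genome build, so coordinates are given only for RefSeq promoters (GRCm38.p6).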

Additional observations from a re-analysis of the deposited data

How the results depend on the processing

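The difference of Cd274 was -1.10 as reported. Median centring, a second quantile normalization and the other choices of probe set left it there by construction and test nothing about it. It passed with the filter on low signal (adjusted p = 0.0173), the trended and robust prior (0.0131) and array weights (-1.13, 0.0159). It did not pass with the hybridization controls as a covariate (-0.92), or in 5 of the 6 fits that left out 1 array (range -1.23 to -1.02). With replicate 2 alone standing for the clodronate-liposome group, where the PBS-liposome arrays alone give the spread and the smallest adjusted p of any probe set was 0.133, it was -0.85, and the counts of 0 calls in that fit say nothing about stability. Over all probe sets 138 were called (107 lower, 31 higher), with 244 after the filter on low signal (178 lower, 66 higher), 248 with the trended and robust prior, 234 with array weights and 6 to 73 without 1 array. With the hybridization controls as a covariate 0 were called by limma (smallest adjusted p 0.0608, 4710 at an unadjusted p below 0.05), and with the single treated array 0 (3964 unadjusted). Member probe sets called were 1 (Cd274) as reported, 2 (Cd274 and Ido1) with the filter, the trended and robust prior or array weights, 0 (4 and 3 at an unadjusted p below 0.05) with the hybridization covariate or the single treated array, and 0 to 1 without 1 array. Same-numbered arrays of the groups deviated together with r of 0.075, 0.070 and 0.036, so the numbers were not taken to pair the samples. With the replicate number as a block, the Cd274 difference was -1.10 (adjusted p = 0.0703), 0 member probe sets and 0 of all probe sets were called by limma (5033 at an unadjusted p below 0.05).

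Probe sets without overlap between groups numbered 7208, 4574 after the filter on low signal, 24889 with the single treated array and 10609 to 13811 without 1 array, where fewer arrays make overlap rarer by construction. Genes with r of 0.9 or more with Cd274 numbered 442, 347 by Spearman's rho, 1331 with the single treated array and 572 to 989 without 1 array. Of the low-signal members, Cd80 changed sign with array weights (-0.0067), with the mean of all probe sets (-0.029), with its most variable probe set (-0.11) and within its range without 1 array (-0.0072 to 0.082), and Cd86 with the mean of all probe sets (0.0082) and its most variable probe set (0.13). Cd276 changed sign with the single treated array (0.081). Cd274 minus Ido1 ranged from -0.16 to 0.21 without 1 array. The cause of these changes was not tested. Ido1, Lgals9, Icosl and Cd40 kept their direction under all 16 alternatives, with ranges of -1.26 to -0.91, -0.67 to -0.28, 0.059 to 0.22 and 0.17 to 0.35. The same alternatives, other than the choice of probe set, were applied to Nlrc5, Icos, Slc7a5, Gcc1, Irgm2 and the called probe sets of Socs3 and Ildr2 after the data had been seen, and each kept its direction in all 14, with the fewest calls kept by Nlrc5, Icos, Slc7a5 and Gcc1 (5 of 14, among them median centring and the second quantile normalization) and the most by Socs3 (11 of 14). Signal near background limits Pdcd1lg2, Cd80, Cd86 and Icosl.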
